A study of Mus musculus with 4 samples.

Results

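The enzymes that carry glucose carbon from the cell surface to pyruvate, lactate and the citric acid cycle were followed gene by gene in whole back skin of mice with and without Bmal1. The set is a list of 51 genes of glucose transport, glycolysis, pyruvate use and the citric acid cycle. A gene was read from the array where a probe set carried its symbol alone, and from the probe set with the highest mean where there were several. That held for 46 of the 51 genes, among 19938 genes read from the array in all, and all 46 had a mean high enough to be tested. Gpi1, Pfkfb1, Eno1 and Mpc2 had no probe set of this kind, and Gapdh was listed only together with other symbols, so these 5 were not analysed here.

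The mice were C57Bl6, at postnatal day 22, when hair follicles rest in telogen. Skin was collected at ZT22, that is 22 hours after lights on and late in the dark phase, from mice kept in light-dark cycles on standard chow. The 2 control mice were heterozygous, with 1 mutant and 1 wild-type Bmal1 allele, so the comparison has no wild-type group. The other 2 mice were germline knockouts, which lack both copies in every cell of the body. The design text describes the replicates as biological littermates, and each mouse gave 1 Affymetrix whole-transcript array. The comparison asks which transcripts of these pathways differ in level when skin has no intact Bmal1 at this hour.

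Glycolysis splits glucose to pyruvate in the cytosol. Pyruvate is then either reduced to lactate or carried into mitochondria, where the pyruvate dehydrogenase complex turns it into acetyl-CoA for the citric acid cycle. Several steps have isoforms made mainly in striated muscle, and mouse back skin carries a thin sheet of skeletal muscle, the panniculus carnosus, beneath the dermis and fat. BMAL1 pairs with CLOCK and binds E-box elements in DNA.

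Values are log2 probe set signals after quantile normalization, and differences are knockout minus heterozygous. SEs are limma's moderated ones. Adjusted p-values are limma's with a Benjamini-Hochberg correction across the 16341 probe sets tested and a threshold of 0.05, and n is 2 mice per genotype throughout. The small number of arrays limits the precision of every value. Levels of different genes are not compared, since each probe set has its own brightness.

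Arntl, the gene symbol of Bmal1, was lower in both knockout arrays. It read 8.90 and 9.08 in heterozygous skin and 8.29 and 8.16 in knockout skin, a difference of -0.76 (SE 0.12, adjusted p = 0.015). All 8 keratinocyte markers and all 7 fibroblast markers that were read lay above the filter on dim probe sets. Heterozygous array 2 stood furthest from the rest, with correlations of 0.966 to 0.983 to the other arrays across tested probe sets. Knockout arrays 1 and 2 correlated at 0.988.

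Most of the 46 genes read higher in the knockout arrays, and 5 of them passed the adjusted threshold. These 5 rose: Tpi1, Pgam2, Eno3, Pkm and Ldhb, 4 enzymes of glycolysis and a subunit of lactate dehydrogenase. Of all tested probe sets, 1.47% passed as higher and 0.502% as lower. None of the 46 genes passed as lower. At an unadjusted p under 0.05 there were 25 higher and 0 lower, or 54.3% of the 46 as higher, where 11.6% of all probe sets were higher and 6.38% lower. Both knockout arrays lay above the heterozygous range for 33 genes (71.7%) and below it for 2 (Hk1 and Slc16a3), against 27.8% and 22.1% of all probe sets. The median difference was 0.30 over the 46 genes and 0.02 over all tested probe sets, and 41 of the 46 differences were above 0, as were 54.2% of all.

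The adjusted calls depended on which probe sets shared the fit and on single mice. When probe sets annotated to several genes were fitted too, 0% of 17557 probe sets passed and none of the 46 genes did. Among the 5 genes the adjusted p then ran from 0.109 for Pgam2 to 0.152 for Pkm, and for Arntl it was 0.102. In the same fit 22 of the 46 were at an unadjusted p under 0.05, all higher. Of all probe sets, 15.5% were at that p in either direction. In a fit with 1 probe set per gene, 7 of the 46 passed as higher, the same 5 with Pgk1 and Slc16a1, where 1.9% of genes passed as higher and 0.677% as lower. Without knockout array 1 no gene of the list passed, where 0.471% of all probe sets did in either direction, and without heterozygous array 2 only Pgam2 did (1.84% of all). Without heterozygous array 1 there were 11, all higher, beside 6.03% of all probe sets, and without knockout array 2 there were 6, all higher, beside 1.79%. At an unadjusted p under 0.05 the count was 13 higher and 0 lower without heterozygous array 2, where 13.8% of all probe sets were at that p in either direction. It was 14 higher and 1 lower (Pdk4) without knockout array 1, where 10.3% were.

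**Figure D1:**
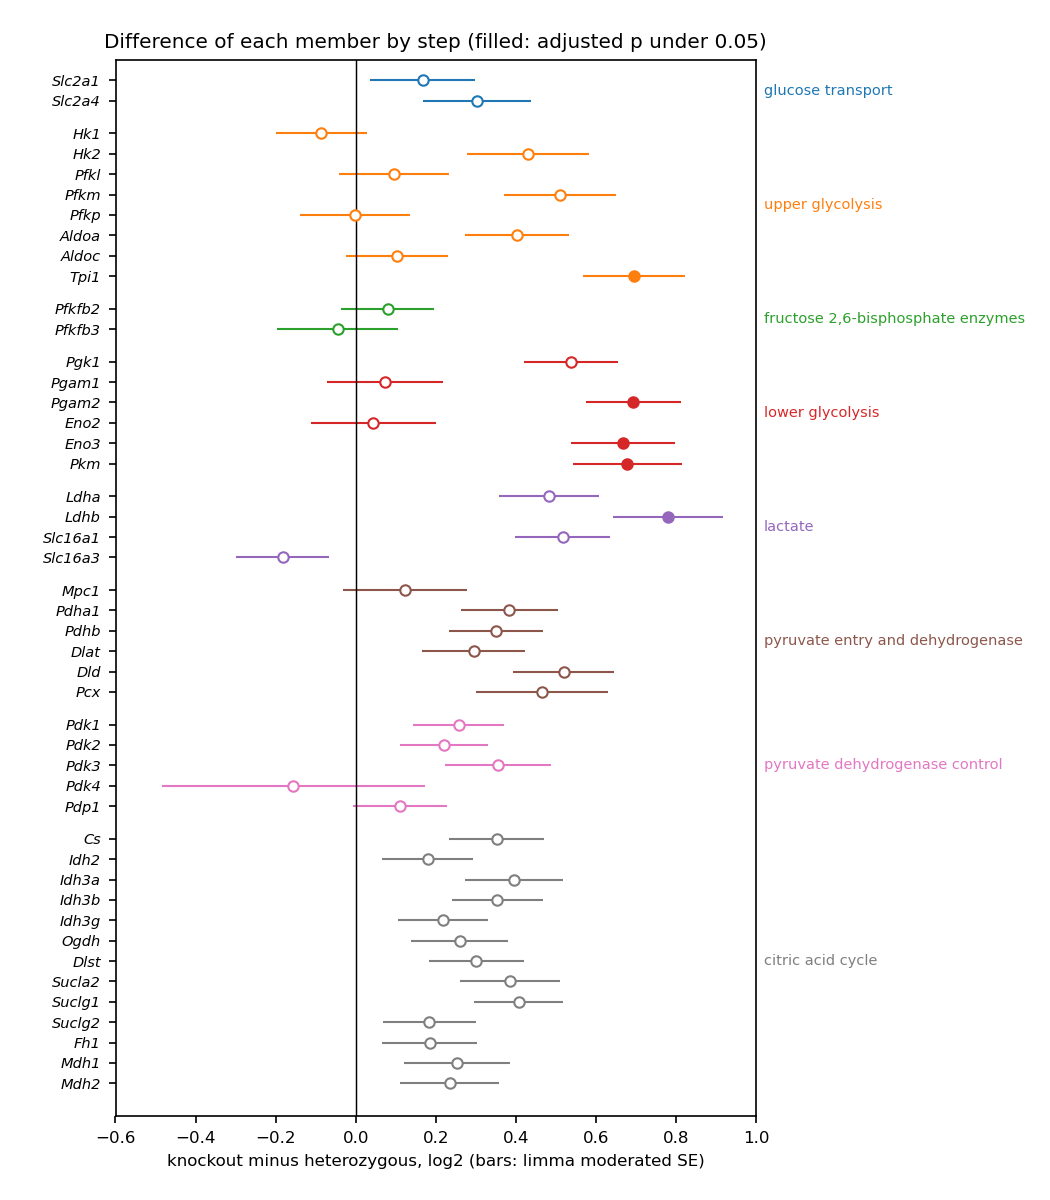
Difference between knockout and heterozygous arrays for each of the 46 genes, on a log2 scale, grouped by step of the pathway. Points are differences of means of 2 arrays per genotype, bars are limma's moderated SE, and filled points passed the adjusted threshold. The filled points are Tpi1, Pgam2, Eno3, Pkm and Ldhb, between 0.67 and 0.78, and all 13 citric acid cycle genes lie between 0.18 and 0.41.

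Because CLOCK and BMAL1 bind E-boxes, the promoter windows of the list were searched for the letters CACGTG, which read the same on both strands. The windows run from 250 bases before to 50 bases after each RefSeq start on GRCm38.p6. Of the 48 listed genes with an entry, 8 had the motif in at least 1 window (16.7%), against 8.09% of all 27025 symbols. By window the shares were 13.5% of 74 and 7.15% of 32851. The 8 genes were Ldha, Ogdh, Pcx, Pdk2, Pfkfb2, Pfkfb3, Pfkm and Slc16a1. Their median difference was 0.36, and that of the 35 tested genes with an entry but no match was 0.29. Ogdh had a match in several windows, some of which overlap and share it. Of the 3 windows below, that of Ldha (0.48) is shown as the one window with 2 matches. Pfkm (0.51) is shown as a muscle isoform, and Pfkfb3 (-0.04) because it had the lowest difference of the 8. Slc16a1 had the highest (0.52). Only the 250 bases before the start are printed, 5′ to 3′ on the gene's strand, with the motif in capitals. They lie at chr7:46845554-46845803 (plus strand) for Ldha, chr15:98092339-98092588 (plus strand) for Pfkm and chr2:11502091-11502340 (minus strand) for Pfkfb3.
Ldha: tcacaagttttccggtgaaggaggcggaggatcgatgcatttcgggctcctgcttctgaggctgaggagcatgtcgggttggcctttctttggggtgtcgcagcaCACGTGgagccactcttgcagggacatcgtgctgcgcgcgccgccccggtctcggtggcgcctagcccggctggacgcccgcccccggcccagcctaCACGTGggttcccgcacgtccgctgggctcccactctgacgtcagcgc
Pfkm: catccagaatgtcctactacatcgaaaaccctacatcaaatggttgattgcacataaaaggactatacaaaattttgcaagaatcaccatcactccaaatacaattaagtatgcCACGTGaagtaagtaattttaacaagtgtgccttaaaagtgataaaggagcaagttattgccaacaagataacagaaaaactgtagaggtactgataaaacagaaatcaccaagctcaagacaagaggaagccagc
Pfkfb3: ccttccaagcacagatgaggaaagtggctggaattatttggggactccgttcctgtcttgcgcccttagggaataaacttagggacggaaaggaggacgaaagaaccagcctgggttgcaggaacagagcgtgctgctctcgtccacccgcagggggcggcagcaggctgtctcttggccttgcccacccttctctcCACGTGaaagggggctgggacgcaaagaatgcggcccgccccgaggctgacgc
The motif begins 145 and 48 bases before the start in Ldha, 136 bases before it in Pfkm and 53 bases before it in Pfkfb3. A match describes the letters in the window and does not show that the site is bound.

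Glucose enters cells through SLC2A family transporters. Slc2a1 encodes GLUT1, the transporter of most cells, and Slc2a4 encodes GLUT4, the insulin-responsive transporter of muscle and fat. Slc2a4 read 9.18 and 8.93 in heterozygous skin and 9.49 and 9.23 in knockout skin. The knockout values of Slc2a4 were both above the heterozygous ones, though by little, and the difference was 0.30 (SE 0.14, adjusted p = 0.28). Slc2a1 read 9.71 and 9.43 against 9.66 and 9.82, so the genotypes overlapped (0.17, SE 0.13, adjusted p = 0.54).

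Upper glycolysis prepares glucose for cleavage and forms the triose phosphates. Of its 8 tested genes 6 read higher, and the median difference was 0.25. Only 1 passed the adjusted threshold, where 1.47% of all probe sets passed as higher. The gene that passed was Tpi1, triosephosphate isomerase, which interconverts both triose phosphates. Tpi1 read 10.93 and 10.82 in heterozygous skin and 11.71 and 11.44 in knockout skin. The groups were well apart, with a difference of 0.70 (SE 0.13, adjusted p = 0.027), or 1.62-fold. Its adjusted p was 0.056 without heterozygous array 2 and 0.19 without knockout array 1.

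Neither hexokinase, the enzymes that trap glucose as glucose 6-phosphate, passed the threshold. Hk2, the insulin-responsive form abundant in muscle and fat, read 8.44 and 8.15 against 8.92 and 8.54 in the knockout arrays (0.43, SE 0.15, adjusted p = 0.18). Hk1, the form of most tissues, read 12.90 and 12.81 against 12.74 and 12.79 from its brighter probe set (-0.09, SE 0.11). A second, dimmer Hk1 probe set gave 0.20 (SE 0.13), of opposite sign. Aldoa, the aldolase of muscle and many other tissues, differed by 0.40 (SE 0.13, adjusted p = 0.15) with both knockout arrays higher. Aldoc, the aldolase best known from brain, differed by 0.10 with overlapping groups.

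Phosphofructokinase commits sugar to glycolysis, and its tetramers are built from muscle, liver and platelet subunits. Pfkm, the muscle subunit, read 9.66 and 9.62 in heterozygous skin and 10.35 and 9.95 in knockout skin. Both knockout arrays were higher for Pfkm, array 1 by more, and the difference was 0.51 (SE 0.14, adjusted p = 0.096). Pfkl, the liver subunit, read 8.36 and 8.05 against 8.41 and 8.20 (0.10, SE 0.14). Pfkp, the platelet subunit, read 9.32 and 8.96 against 9.19 and 9.08, a difference of -0.0012 (SE 0.14). The genotypes overlapped for both Pfkl and Pfkp, and the sign of Pfkp was positive with the values as deposited and after median centring.

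The bifunctional enzymes that set fructose 2,6-bisphosphate, the activator of phosphofructokinase, overlapped between genotypes. Pfkfb2 read 8.87 and 8.87 against 9.05 and 8.85 (0.08, SE 0.12, adjusted p = 0.77). Pfkfb3 differed by -0.04 (SE 0.15), with 8.47 and 8.05 in heterozygous skin and 8.12 and 8.31 in knockout skin. This sign turned with the values as deposited (0.01) and after median centring (0.05).

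Lower glycolysis, which yields ATP and pyruvate, had a median of 0.60 over 6 tested genes, the highest of the steps with all 4 arrays (without knockout array 1 it was 0.51, below the 0.53 of the lactate genes). All 6 read higher, and 3 passed the adjusted threshold, where 1.47% of all probe sets passed as higher: Pgam2, Eno3 and Pkm. Pgam2, the muscle form of phosphoglycerate mutase, read 10.30 and 10.39 in heterozygous skin and 11.14 and 10.95 in knockout skin (0.69, SE 0.12, adjusted p = 0.023), or 1.62-fold. Eno3, the muscle enolase, read 12.23 and 12.03 against 12.91 and 12.69 (0.67, SE 0.13, adjusted p = 0.034), or 1.59-fold. Pkm, the pyruvate kinase of muscle and most other adult tissues, read 10.46 and 10.21 against 11.14 and 10.88 (0.68, SE 0.14, adjusted p = 0.039), or 1.60-fold. For all 3 genes the lowest knockout array was above the highest heterozygous array by more than either genotype's spread. Without knockout array 1 the adjusted p was 0.15 for Pgam2, 0.27 for Eno3 and 0.23 for Pkm. Without heterozygous array 2 it was 0.052 for Eno3 and 0.11 for Pkm.

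Pgk1, phosphoglycerate kinase, lay just outside the threshold. Its arrays read 10.69 and 10.57 in heterozygous skin and 11.24 and 11.09 in knockout skin (0.54, SE 0.12, adjusted p = 0.051). It passed in the fit with 1 probe set per gene (adjusted p = 0.046), but without heterozygous array 2 and without knockout array 1 its adjusted p was 0.13 and 0.31. Pgam1, the mutase of most tissues, read 10.23 and 9.81 against 10.09 and 10.10 (0.07, SE 0.15), and Eno2, the neuronal enolase, read 7.22 and 6.92 against 7.21 and 7.02 (0.04, SE 0.16). Both overlapped between genotypes. Eno2 was negative with the values as deposited and after median centring.

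Where a gene had more than 1 probe set, they mostly differed in the same direction. A second Pkm probe set differed by 0.45 (SE 0.12, adjusted p = 0.087) and a second Ldhb probe set by 0.88 (SE 0.16, adjusted p = 0.025). The 3 Pgk1 probe sets differed by 0.52 to 0.54 and the 3 Pgam1 probe sets by 0.04 to 0.07, but in each trio 2 probe sets carried the same values in every array and are not separate measurements. Glycolytic genes have processed pseudogene copies in the mouse genome, so probes may read more than the named locus.

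Lactate dehydrogenase interconverts pyruvate and lactate, and its tetramers mix the Ldha and Ldhb subunits. Ldhb, the subunit of heart and other oxidative tissues, had the greatest difference of the 46 genes. It read 9.41 and 9.16 in heterozygous skin and 10.20 and 9.92 in knockout skin. The groups were far apart for Ldhb, which rose by 0.78 (SE 0.14, adjusted p = 0.025), or 1.72-fold. Without heterozygous array 2 its adjusted p was 0.066 and without knockout array 1 it was 0.145. Ldha, the subunit of fast muscle and of most glycolytic cells, read 11.93 and 11.68 against 12.27 and 12.30 (0.48, SE 0.12, adjusted p = 0.084).

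Neither of the 2 lactate carriers passed the threshold, and the difference between them was not tested. Slc16a1 encodes MCT1, a widespread monocarboxylate transporter that can take up lactate, and read 8.68 and 8.47 in heterozygous skin and 9.05 and 9.14 in knockout skin. Both knockout values of Slc16a1 were above both heterozygous ones (0.52, SE 0.12, adjusted p = 0.061). With 1 probe set per gene its adjusted p was 0.049, and without heterozygous array 2 and without knockout array 1 it was 0.198 and 0.197. Slc16a3 encodes MCT4, the exporter of highly glycolytic cells, and read 8.99 and 8.80 against 8.75 and 8.68 in the knockout arrays. Both knockout arrays were lower for Slc16a3, by little (-0.18, SE 0.12, adjusted p = 0.45).

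Genes that bring pyruvate into mitochondria and oxidize it read higher without passing the adjusted threshold. The step had 6 tested genes with a median difference of 0.37, all above 0. At an unadjusted p under 0.05, 5 of them were higher (83.3%), where 11.6% of all probe sets were. Dld, the dihydrolipoamide dehydrogenase subunit shared with the 2-oxoglutarate dehydrogenase complex, read 9.23 and 8.98 in heterozygous skin and 9.54 and 9.70 in knockout skin (0.52, SE 0.13, adjusted p = 0.074). Pdha1 and Pdhb, which form the decarboxylating part of the complex, differed by 0.38 (SE 0.12) and 0.35 (SE 0.12), and Dlat, its acetyltransferase core, by 0.29 (SE 0.13). Knockout values of these 4 genes were all higher than the heterozygous range, a pattern found in 27.8% of all tested probe sets. Pcx, pyruvate carboxylase, which makes oxaloacetate, read 10.26 and 9.72 against 10.39 and 10.52 (0.47, SE 0.17, adjusted p = 0.18). Leaving out heterozygous array 2 gave 0.20 for Pcx, and leaving out heterozygous array 1 gave 0.74. Mpc1, a subunit of the mitochondrial pyruvate carrier, overlapped (0.12, SE 0.15).

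Pyruvate dehydrogenase kinases switch the complex off and the phosphatase Pdp1 switches it on. Pdk3 read 9.25 and 9.03 in heterozygous skin and 9.37 and 9.62 in knockout skin (0.36, SE 0.13, adjusted p = 0.20). Pdk1 and Pdk2 also had both knockout arrays higher, with differences of 0.26 (SE 0.11) and 0.22 (SE 0.11). Pdk4, the kinase induced by fasting and fatty acids, varied more between mice of 1 genotype than between genotypes. It read 10.67 and 11.20 in heterozygous skin and 11.41 and 10.15 in knockout skin, so that the highest and the lowest value were both knockout (-0.16, SE 0.33, adjusted p = 0.85). Without knockout array 1 the Pdk4 difference was -0.79, and without knockout array 2 it was 0.48. Pdp1 overlapped (0.11, SE 0.12).

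Each of the 13 citric acid cycle genes had both knockout arrays above the heterozygous range, where 27.8% of all tested probe sets did. None of the 13 passed the adjusted threshold. Their median difference was 0.26 and their range 0.18 to 0.41. At an unadjusted p under 0.05, 6 were higher (46.2%), where 11.6% of all probe sets were. Suclg1, the alpha subunit of succinyl-CoA synthetase, read 9.35 and 9.40 in heterozygous skin and 9.84 and 9.73 in knockout skin. The knockout values of Suclg1 lay clearly above the others (0.41, SE 0.11, adjusted p = 0.094). Its partner subunits Sucla2, which gives the enzyme its preference for ADP, and Suclg2, which gives it that for GDP, differed by 0.39 (SE 0.12) and 0.18 (SE 0.12).

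The 3 subunits of NAD-dependent isocitrate dehydrogenase, Idh3a, Idh3b and Idh3g, differed by 0.40 (SE 0.12), 0.35 (SE 0.11) and 0.22 (SE 0.11), and the NADP-dependent Idh2 by 0.18 (SE 0.11). Cs, citrate synthase, which opens the cycle, differed by 0.35 (SE 0.12, adjusted p = 0.16). Ogdh and Dlst, of the 2-oxoglutarate dehydrogenase complex, differed by 0.26 (SE 0.12) and 0.30 (SE 0.12). Fh1, fumarate hydratase, and the malate dehydrogenases Mdh1 (cytosolic) and Mdh2 (mitochondrial) had differences of 0.18, 0.25 and 0.23. The cycle thus differed by less than lower glycolysis in its median (0.26 and 0.60), a comparison that was not tested.

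**Figure D2:**
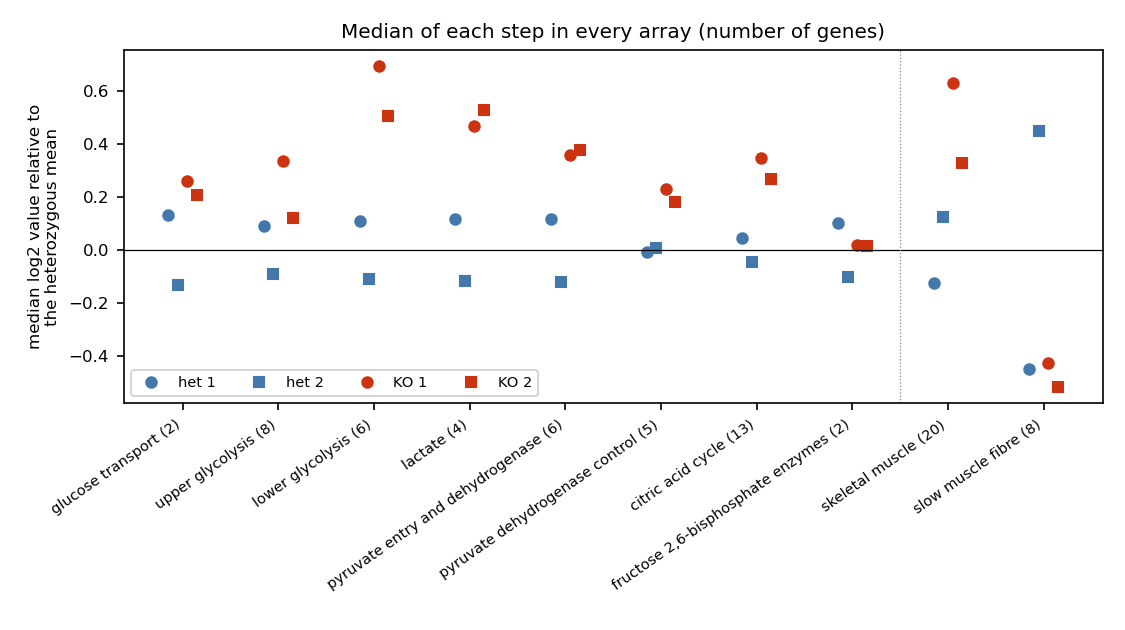
Median log2 value of the tested genes of each step in every array, relative to the heterozygous mean of each gene, with the number of genes in parentheses. Right of the dotted line are the skeletal muscle and slow fibre markers. Lower glycolysis was at 0.69 and 0.51 in the knockout arrays and skeletal muscle at 0.63 and 0.33. In heterozygous arrays 1 and 2, lower glycolysis was at 0.11 and -0.11 and skeletal muscle at -0.12 and 0.12. The median of the slow fibre markers was high in heterozygous array 2 alone (0.45), with heterozygous array 1 (-0.45) beside the knockout arrays (-0.43 and -0.52). Single slow fibre markers differed from that median.

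The muscle isoforms were then set against the other isoforms of the same step, as ratios within each array. Pgam2 relative to Pgam1 was 0.07 and 0.59 in heterozygous skin and 1.05 and 0.84 in knockout skin, a shift of 0.62. Pfkm relative to Pfkl was 1.30 and 1.57 against 1.93 and 1.76, a shift of 0.41, and relative to Pfkp it was 0.34 and 0.67 against 1.15 and 0.87, a shift of 0.51. In these 3 ratios both knockout arrays were above both heterozygous arrays. The exact two-sided permutation test over arrays gave p = 0.333 for each, the smallest that 2 arrays against 2 allow. Adjusted over the 4 ratios by Benjamini-Hochberg it was 0.444. Slc2a4 relative to Slc2a1 was -0.53 and -0.50 against -0.17 and -0.59, which overlapped (shift 0.14, exact permutation p = 1, adjusted 1). Without knockout array 1 this last shift was -0.08. Without heterozygous array 1 the shift was 0.36 for Pgam2 over Pgam1, 0.28 for Pfkm over Pfkl and 0.35 for Pfkm over Pfkp. Such a ratio shows unequal change and not that either gene stayed constant. Eno3 could not be set against Eno1, which was not analysed here.

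**Figure D3:**
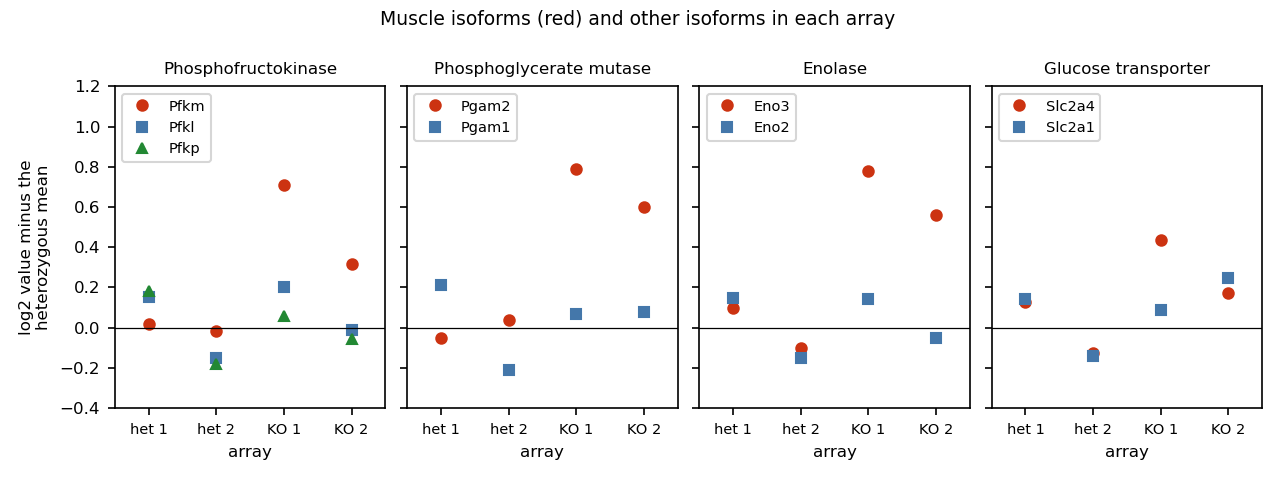
Log2 value of muscle isoforms (red) and other isoforms of 4 steps in each array, minus the gene's heterozygous mean. Pfkm, Pgam2 and Eno3 lie at 0.31 or higher in both knockout arrays, while Pfkl, Pfkp, Pgam1 and Eno2 overlap with their heterozygous values. The muscle and fat isoform Slc2a4 lies at 0.17 in knockout array 2, little above heterozygous array 1, and Slc2a1 overlaps.

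Most skeletal muscle markers were also higher in the knockout arrays. Within the heterozygous pair the order differed: their median was -0.12 and 0.12, and that of the 46 genes 0.10 and -0.10. All 20 listed markers were read and tested, 18 were higher in the knockout arrays, and the median difference was 0.48. At an unadjusted p under 0.05, 17 were higher (85%), where 11.6% of all probe sets were. The summed linear signal of the 20 was 67200 and 71500 in heterozygous skin and 109000 and 90200 in knockout skin, a ratio of 1.44 between means. Defining markers were bright in all 4 arrays. Ckm, muscle creatine kinase, read 12.71 and 12.71 against 13.32 and 13.17 (0.53, SE 0.12), and Mylpf, a fast-fibre myosin light chain, differed by 0.84 (SE 0.14). The 2 markers that were lower, Mb (-0.11, SE 0.23) and Tcap (-0.26, SE 0.16), overlapped between genotypes. The 8 slow fibre markers had a median of -0.47 and a summed signal of 3310 and 4340 against 3870 and 3210. Atp2a2 (11.15 and 11.03 against 11.36 and 11.03) had the highest signal of the 8 and weighed most in that sum. The median of the slow fibre markers followed heterozygous array 2. The array medians were -0.45 and 0.45 in heterozygous skin and -0.43 and -0.52 in knockout skin, so heterozygous array 1 did not stand apart in them. Single markers varied. In 3 of the 8 (Myh7, Myl2 and Tnnc1) both knockout arrays were below both heterozygous ones, where 22.1% of all probe sets were. The same 3 were lower at an unadjusted p under 0.05, where 6.38% of all were. Tnnt1 was low in heterozygous array 1 alone (7.06 and 8.58 against 8.54 and 8.28). Most skeletal muscle markers and the muscle isoforms were thus higher in the same 2 arrays, and the part of muscle tissue in the differences of Pgam2, Eno3, Pfkm and the shared enzymes was not tested. In whole skin, more cells of a type and more RNA per cell cannot be told apart.

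Some marker lists of other cell types also differed between genotypes, which does not show that the cell types themselves did. The 7 sebocyte markers that were read were all higher, with a median of 0.60 and a summed signal of 17100 and 12800 against 23800 and 23200. Of 8 brown adipocyte markers 7 were tested and 6 were higher, with a median of 0.54 and a summed signal over all 8 of 6540 and 6850 against 9690 and 9890. Ucp1, the defining gene of brown fat, lay below the filter and was not tested, and Prdm16, a regulator of brown fat identity, and Dio2, a deiodinase, differed by 0.0008 and -0.17. White adipocyte markers (7 tested, median 0.08, summed signal 19200 and 13400 against 16000 and 18700) and endothelial markers (6 tested, median 0.03, 3070 and 3050 against 3410 and 2790) overlapped in their sums. Keratinocyte markers had a median of 0.16 (44200 and 35300 against 44100 and 38400) and fibroblast markers 0.06 (34800 and 29800 against 31800 and 33100). Macrophage and leukocyte markers had a median of -0.14 over 8 genes, with a summed signal of 10300 and 8880 against 7920 and 8260. The part of sebocytes and of the cells behind the brown adipocyte list in the differences was not tested either.

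Further genes of the same pathways, outside the list of 51, were less uniform. Of 31 such genes 25 were tested, 15 were higher and 10 lower, with a median of 0.13. At an unadjusted p under 0.05 there were 7 higher (28%) and 1 lower, where 11.6% and 6.38% of all probe sets were. At the adjusted threshold 1 gene passed as higher, where 1.47% of all probe sets did. It was Sdhb, the iron-sulfur subunit of succinate dehydrogenase, which read 9.88 and 9.93 in heterozygous skin and 10.72 and 10.58 in knockout skin (0.75, SE 0.11, adjusted p = 0.013). Me3, a mitochondrial malic enzyme, differed by 0.59 (SE 0.13, adjusted p = 0.058), and Aco1, cytosolic aconitase, by 0.51 (SE 0.13, adjusted p = 0.090). In the fit with 1 probe set per gene Me3 passed too (adjusted p = 0.048), where 1.9% of genes passed as higher. On the lower side, the smallest p-values belonged to Slc16a7, the monocarboxylate transporter MCT2 (-0.36, SE 0.11, adjusted p = 0.14), Slc2a12, a glucose transporter (-0.20, SE 0.11), and Fbp2, the muscle form of fructose bisphosphatase (-0.16, SE 0.12). In Slc16a7 both knockout arrays, at 8.31 and 8.22, were below both heterozygous arrays, at 8.56 and 8.69.

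**Figure D4:**
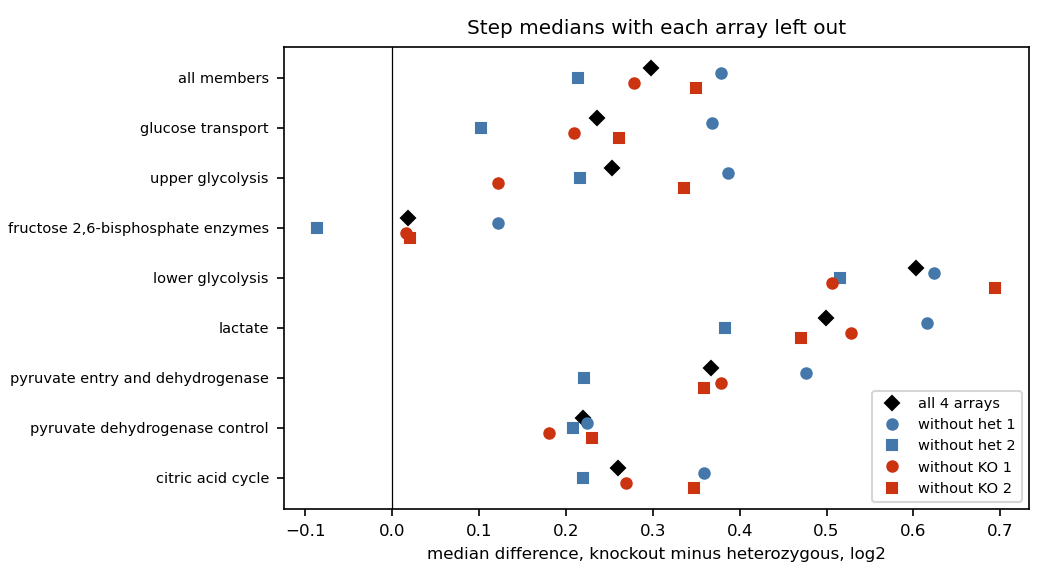
Median difference of each step, on a log2 scale, with all 4 arrays and with each array left out in turn. Lower glycolysis stayed between 0.51 and 0.69 and the citric acid cycle between 0.22 and 0.36, while the 2 fructose 2,6-bisphosphate enzymes ran from -0.09 to 0.12.

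Leaving out 1 array moved the step medians without turning any but 1 of them. Lower glycolysis and lactate genes had the highest medians in every case, with ranges of 0.51 to 0.69 and 0.38 to 0.62. Upper glycolysis ran from 0.12 without knockout array 1 to 0.39 without heterozygous array 1, and glucose transport from 0.10 (heterozygous array 2 left out) to 0.37 (heterozygous array 1 left out). The pyruvate step ran from 0.22 to 0.48 on the same arrays as glucose transport, and its control genes from 0.18 to 0.23. The median that turned was that of Pfkfb2 and Pfkfb3, at -0.09 without heterozygous array 2.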

How the data were processed

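Total RNA of whole back skin from 4 mice, 2 per genotype, was labelled with biotin and hybridised to 1 array each, per the labels' protocols. The submitters' processing notes name Affymetrix Expression Console 1.1.1 and PLIER 2.0. The deposited values of 35557 probe sets were taken as log2 from their range (2.54 to 14.9). No source used here states their scale or a normalization between arrays. PLIER averages probes along a transcript and can hide a change in part of it. Upper or lower quartiles differed by up to 0.337 between arrays, so the arrays were quantile normalized.

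The array annotation gave 1 gene for 21789 probe sets, several for 1621 and none for 12147, and 21698 symbols were updated by gene identifier with a GRCm38.p6 table. Tested were the 16341 probe sets with 1 gene and a mean in the range above their 25th percentile (6.67). Genotypes were compared with limma 3.58.1 in R 4.3.3 (lmFit, eBayes with a trend), with 2 residual degrees of freedom. The test was run on data simulated from its own fitted variance prior, which cannot show whether that prior holds for these arrays. Isoform ratios were tested with an exact permutation test over arrays. Arrays give no read depth.

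The members, steps, marker lists and further genes were chosen with earlier results of these data known. Values in every array are given for the muscle isoforms and their counterparts, for the gene of each step with the smallest p or the largest difference, and for genes past the threshold. Of the further genes, the 3 with the smallest p in each direction are named. Other genes' array values were added after they were seen. Alternatives covered scaling, an offset of 16, filters, the variance prior, probe sets per gene, a replicate block by label number and each array left out. A fit that also held probe sets of several genes was added after the data were seen.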

Additional observations from a re-analysis of the deposited data

How the results depend on the processing

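Calls moved with the setting, and directions mostly did not. Over the array, 323 probe sets passed the adjusted threshold (1.98%, 241 higher and 82 lower), and 5 genes of the list. Shares in parentheses are of the probe sets tested in the same fit. Respective counts were 524 (3.21%) and 9 with the values as deposited, and 879 (5.38%) and 11 after median centring. Without a filter they were 145 (0.665%) and 2. They were 0 and 0 with probe sets of several genes also fitted, an alternative chosen after seeing the data. That fit had 4.12 prior degrees of freedom, against 7.73, and the cause of the lost calls was not tested. With the filter at the 50th percentile the counts were 441 (4.05%) and 8, where 44 genes of the list were tested. Without a trend they were 221 (1.35%) and 3, and with a robust prior 450 (2.75%) and 8. The split of array-wide calls was 443 higher and 81 lower as deposited and 754 and 125 after median centring.

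With a replicate block by label number, 1235 probe sets (7.56% of those tested) and 11 genes of the list passed. Same-numbered arrays deviated together at a correlation of 0.167, but the labels do not say that the number marks a litter.

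With 1 array left out, where the lone array of its genotype is assumed to vary like the other pair, array-wide calls ran from 77 (without knockout array 1) to 986 (without heterozygous array 1). Those of the list ran from 0 to 11 on the same arrays, and genes at an unadjusted p under 0.05 from 13 to 26. Medians ran from 0.12 to 0.39 for upper glycolysis, 0.22 to 0.48 for the pyruvate step, 0.22 to 0.36 for the citric acid cycle and -0.086 to 0.12 for the fructose 2,6-bisphosphate enzymes. Slc2a4 minus Slc2a1 ran from -0.076 to 0.35.

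Scaling moved some medians. As deposited they were 0.39 for the whole list, 0.34 for pyruvate dehydrogenase control and 0.36 for the citric acid cycle. After median centring they were 0.43, 0.37 and 0.40, with 0.38 for glucose transport and 0.14 for the fructose 2,6-bisphosphate enzymes, and the median of all tested probe sets was 0.10. Upper glycolysis was 0.40 with the filter at the 50th percentile.

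Of single genes, none of the 5 that passed turned sign. As deposited and after median centring the sign turned for Pfkp (0.11 and 0.15), Pfkfb3 (0.014 and 0.0495) and Eno2 (-0.041 and -0.0055). The mean of both Hk1 probe sets was 0.056. With 1 array left out the ranges were -0.18 to 0.18 for Pfkp, -0.26 to 0.17 for Pfkfb3, -0.11 to 0.19 for Eno2, -0.056 to 0.25 for Pfkl, -0.14 to 0.29 for Pgam1, -0.017 to 0.18 for Pfkfb2, -0.095 to 0.34 for Mpc1 and -0.79 to 0.48 for Pdk4. With the mean of each listed gene's probe sets, 318 of 16333 probe sets (1.95%) and 4 genes of the list passed. Pkm then no longer passed (0.57, adjusted p = 0.056).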
